A study of Mus musculus with 88 samples.

Results

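The extensor digitorum longus (EDL), a fast-twitch muscle of the lower hind leg, was compared between Cdh15 knockout (KO) and wild-type (WT) mice, with 5 bulk RNA libraries per genotype out of 88 libraries in the series. The libraries were chosen by their labelled muscle and genotype alone, and each came from a different male mouse. All 10 mice were of the strain 100% C57BL/6NTac and had gone without food for 18 h. KO mice 3779417, 3793546, 3805666, 3805676 and 3817943 were 85, 82, 72, 71 and 65 days old, and WT mice 3793543, 3793553, 3805657, 3805673 and 3817948 were 82, 83, 72, 71 and 65 days old. By its title, the study concerned the part that M-cadherin plays in fetal muscle formation and in adult fibre number and muscle mass. The libraries here are adult muscle, so what they hold is the adult transcriptome of mice with that genotype. The labels do not say which part of the gene the KO allele lacks.

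M-cadherin, the product of Cdh15, holds muscle cells together in a calcium-dependent way, both among muscle precursors and where a satellite cell sits on its fibre. Like other classical cadherins it spans the membrane and binds catenins, which connect it to the actin skeleton. Satellite cells are the stem cells of muscle and make up a small share of its nuclei, while fibres provide most of its RNA.

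The start of the Cdh15 gene is shown because both Cdh15 and a marker sequence, described next, were read from KO muscle. The window runs from 250 bases before the RefSeq start to 50 bases after it, at chr8:122848124-122848423 on the plus strand of mm10 (RefSeq, GRCm38.p6). It holds 4 matches to CANNTG, the E-box motif that myogenic factors such as MyoD can bind, which reads the same on both strands, and none of the 4 overlap. They are in capitals.
Cdh15: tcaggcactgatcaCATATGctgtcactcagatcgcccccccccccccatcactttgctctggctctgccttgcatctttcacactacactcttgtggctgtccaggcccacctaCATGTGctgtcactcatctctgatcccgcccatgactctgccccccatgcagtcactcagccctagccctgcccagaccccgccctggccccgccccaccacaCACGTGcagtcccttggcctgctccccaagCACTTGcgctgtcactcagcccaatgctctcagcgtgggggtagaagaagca
Of 27025 promoter windows of this length, 72.1% held at least 1 match and 6.52% held at least 4, so a match alone is common.

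Cdh15 fell in KO EDL, and reads of the bacterial reporter LacZ were found in every KO library. Cdh15 had 57, 48, 53, 64 and 72 reads in the KO libraries, against 329, 521, 371, 512 and 412 reads in the WT libraries. In CPM (counts scaled to the library's total and composition) this was 3.16, 2.60, 2.48, 3.0 and 3.35 in KO libraries and 17.7, 24.2, 16.1, 19.5 and 18.3 in WT libraries. The groups did not overlap, and the KO mean was 15.2% of the WT mean. The log2 fold change was -2.71 (SE 0.13, adjusted p = 1.33e-07 by Benjamini-Hochberg in the edgeR quasi-likelihood test), and an exact 2-sided permutation of the 10 mice on CPM gave p = 0.00794, the smallest that 252 relabellings allow. The counts do not place the remaining Cdh15 reads on exons.

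The deposited table also lists 22 marker sequences that are no mouse genes, among them LacZ, the gene of bacterial beta-galactosidase that is widely used as a reporter. LacZ had 114, 135, 138, 143 and 179 reads in the KO libraries. In the WT libraries it had 0 reads in 4 mice and 3 reads in mouse 3793553. The means were 7.04 ± 0.727 CPM in KO and 0.0265 ± 0.0593 CPM in WT EDL (SD, n = 5 each, exact 2-sided permutation p = 0.00794). For marker sequences, CPM was scaled to the library's total only and not to its composition. The ratio of summed reads, 709 in KO against 3 in WT and scaled to depth, was 263.9 with a 95% counting interval of 89.9 to 1282.8. This interval covers counting error only, since it takes the reads of each genotype as 1 sum and leaves out the spread between mice. It also counts reads rather than molecules, since the labels name no molecular identifiers. Per length, in the deposited RPKM, LacZ stood at 2.24 ± 0.231 in KO EDL, which was 33.4% of the level of Cdh15 itself in WT EDL, 6.71 ± 0.914 (SD, n = 5 each). Reads of the SV40 marker sequence numbered 5 to 10 in KO libraries and 0 in every WT library. The KO sum was 39 reads (exact 2-sided permutation of CPM over the 10 mice, p = 0.00794), and a count of 0 allows up to 3 reads in a WT library.

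Outside EDL, LacZ was read in the other KO muscles. It had 78 to 170 reads in KO gastrocnemius, 88 to 156 in KO soleus and 47 to 76 in KO tibialis libraries, against 0 in each WT library of these muscles. In KO heart, liver, lung and spleen it had 0 reads in all 5 libraries, and in KO kidney 0 to 1. The sources used here do not say whether the LacZ sequence lies in the Cdh15 locus of these mice.

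**Figure D1:**
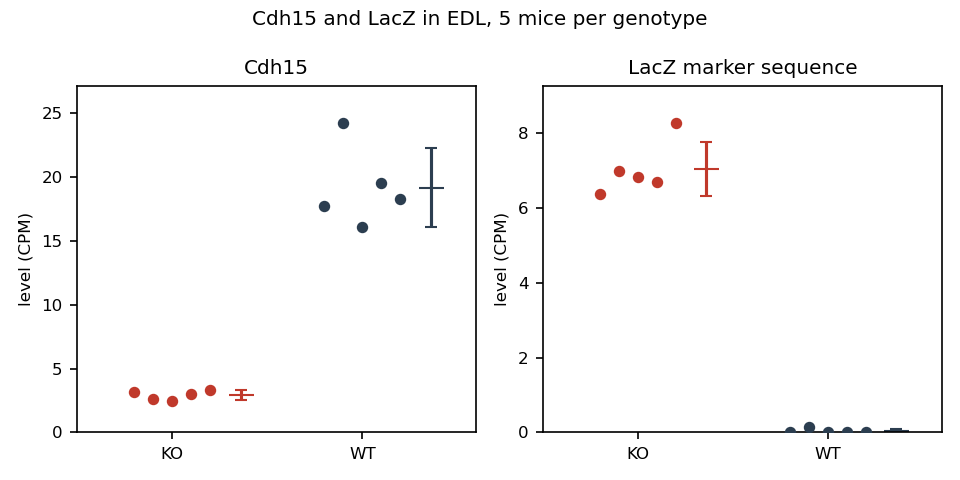
Level of Cdh15 (left) and of the LacZ marker sequence (right) in CPM in EDL libraries of 5 KO and 5 WT mice; points are mice, and the line and bar beside them are the mean and SD. Cdh15 lies at 2.48 to 3.35 CPM in KO and 16.1 to 24.2 CPM in WT libraries, and LacZ lies at 6.38 to 8.27 CPM in KO and 0 to 0.133 CPM in WT libraries. The CPM of LacZ is scaled to the library's total only, and that of Cdh15 to composition as well.

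Beyond Cdh15, no gene passed the adjusted threshold in EDL by edgeR, while the DESeq2 Wald test also called Ndufab1 and Plac9a. Libraries held 17.88 M to 21.64 M counts in KO and 18.56 M to 25.14 M counts in WT mice, and 12875 genes were tested. Cdh15 was the 1 gene called by edgeR, 0.00777% of those tested, and the next adjusted p was 0.714. Most fold changes were small. Of all tested genes, 83.7% lay within 0.2 of 0 on the log2 scale, the median was -0.0026, and the median SE was 0.11. A log2 fold change beyond 1 in either direction was found for 31 genes. An unadjusted p under 0.05 was reached by 2.58% of genes with a higher mean in KO and by 2.0% of genes with a lower one, 4.58% in all. All 5 KO libraries lay above all 5 WT libraries for 0.435% of genes, and below them for 0.365%. The names below are therefore descriptions of these 10 mice, and none of them other than Cdh15 passed the edgeR test on all 10 libraries.

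No other tested cadherin had a higher fitted level in KO EDL. Of 22 other cadherin genes measured, 8 had enough reads to be tested, all 8 had a negative log2 fold change, and 0 were called, but Cdh4, Cdh13, Cdh19 and Cdh23 reached 0.01 to 0.05 with 1 mouse left out. Their median was -0.16, beside -0.0026 over all tested genes, of which 49.2% were positive. Per length, T-cadherin (Cdh13), which has no cytoplasmic tail and is anchored in the membrane by lipid, was the most abundant, at 24.0 ± 2.54 RPKM in KO and 24.2 ± 1.49 RPKM in WT EDL (SD, n = 5 each). VE-cadherin (Cdh5), the adhesion protein of blood vessel lining, followed at 6.23 ± 0.464 RPKM in KO and 7.05 ± 1.37 RPKM in WT EDL. M-cadherin itself, at 6.71 RPKM in WT EDL, lay beside Cdh5 in that order, and the difference between them in WT EDL was less than their spread. The member of smallest p was Cdh11, a cadherin of connective tissue cells. It had 4.89, 4.71, 6.33, 5.66 and 5.11 CPM in KO libraries and 5.50, 6.82, 6.68, 5.52 and 9.84 CPM in WT libraries. These ranges overlap, and the log2 fold change was -0.36 (SE 0.16, edgeR adjusted p = 0.986), or -0.20 without WT mouse 3817948. N-cadherin (Cdh2), which is also expressed by muscle precursor cells, stood at 2.96 ± 0.474 CPM in KO and 3.16 ± 0.756 CPM in WT EDL, with a log2 fold change of -0.09 (SE 0.17). It was added outside the rule for named genes because of its place in muscle. The other 14 cadherins were below the filter, at means of at most 0.187 CPM in KO and 0.264 CPM in WT EDL.

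Catenins and other junction genes had small values of both signs. Of 17 junction genes 15 were tested, 7 positive and 8 negative, with a median of -0.01 and 0 at an unadjusted p under 0.05. The beta-catenin gene Ctnnb1, whose product binds the cadherin tail, had 167.1 to 174.0 CPM in KO libraries and 147.4 to 175.8 CPM in WT libraries (log2 fold change 0.05, SE 0.06). The KO libraries thus lay inside the WT range. The nectin Pvrl2 had a log2 fold change of 0.36 (SE 0.21).

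Genes of myoblast fusion and adhesion had both signs as well. Of 23 measured genes 19 were tested, 7 positive and 12 negative, with a median of -0.04 and 0 at an unadjusted p under 0.05. The fusion proteins myomaker (listed as Tmem8c) and myomixer (listed as Gm7325), which are made when myoblasts fuse, were below the filter at no more than 0.0525 CPM on average in either genotype. The widest gap was in the integrin Itga4, with 21.0 CPM in KO mouse 3779417 and 7.31 to 9.99 CPM in the other KO mice, against 5.23 to 9.48 CPM in WT mice. The log2 fold change of 0.58 (SE 0.29, edgeR adjusted p = 0.986) thus rests on 1 library, and without that mouse it was 0.22.

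Markers of satellite cells and the myogenic factors were detected at low levels. All 26 were tested, 10 positive and 16 negative, with a median of -0.04 and 0 at an unadjusted p under 0.05. The medians of the junction, fusion and satellite cell lists turned positive (0.03 to 0.04) without WT mouse 3817948. Pax7, the transcription factor that defines satellite cells, had 1.5, 1.03, 1.55, 1.40 and 1.16 CPM in KO libraries and 1.19, 1.07, 2.65, 2.09 and 1.69 CPM in WT libraries. The WT mice spread more widely than the KO mice, and the log2 fold change was -0.40 (SE 0.25, edgeR adjusted p = 0.986), or -0.20 without WT mouse 3805657. In bulk muscle, fewer cells of a type and less RNA per cell cannot be told apart.

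Fast-fibre genes were far more abundant than slow-fibre genes in both genotypes, as in a fast muscle. Per length, the fast troponin T gene Tnnt3 stood at 15088 ± 812.2 RPKM in KO and 17099 ± 2021.4 RPKM in WT EDL, and the fast myosin Myh4, the heavy chain of type IIb fibres, at 11318 ± 817.2 RPKM in KO and 11886 ± 1037.3 RPKM in WT EDL (SD, n = 5 each). The slow regulatory light chain Myl2 stood at 42.7 ± 20.9 RPKM in KO and 70.5 ± 41.6 RPKM in WT EDL. Of 16 fast-fibre genes 2 were positive and 14 negative, with a median of -0.08 and 0 called. The 1 member with an unadjusted p under 0.05 was the fast troponin I gene Tnni2, at 4924.5 to 5602.7 CPM in KO and 5233.1 to 7222.7 CPM in WT libraries (log2 fold change -0.22, SE 0.10, edgeR adjusted p = 0.986).

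Slow-fibre genes varied widely between mice of either genotype. Their summed level was 300.1 to 825.8 CPM in KO and 268.1 to 940.3 CPM in WT libraries, highest in WT mouse 3817948 and next in KO mouse 3805676. Csrp3, described below, was the largest part of this sum, at 484.6 CPM in that WT mouse and 601.7 CPM in that KO mouse. The sum therefore follows Csrp3 in large part. Of 15 genes 2 were positive and 13 negative, with a median of -0.30, and 3 had an unadjusted p under 0.05, all lower in KO and 0 called. Without WT mouse 3817948 the median was -0.17, with 4 of 15 positive and 2 at an unadjusted p under 0.05. These 3 were the slow troponins, the calcium switch of slow-twitch fibres. Tnnc1 had 1.78, 1.63, 1.22, 3.37 and 1.77 CPM in KO libraries, against 5.88, 2.46, 2.82, 7.24 and 13.4 CPM in WT libraries. The KO mouse 3805676 lay above WT mice 3793553 and 3805657, and the highest value by far was that of WT mouse 3817948. The log2 fold change was -1.70 (SE 0.50, edgeR adjusted p = 0.986), and it was -1.23 without that WT mouse. Tnnt1 had 3.55, 4.23, 3.19, 7.63 and 3.44 CPM in KO libraries and 7.87, 6.50, 4.21, 15.2 and 24.1 CPM in WT libraries (log2 fold change -1.39, SE 0.50, edgeR adjusted p = 0.986). Tnni1 too was highest in KO mouse 3805676 among KO mice and in WT mouse 3817948 among all 10, with a log2 fold change of -1.63 (SE 0.56). Without WT mouse 3817948 these values were -0.94 for Tnnt1 and -1.11 for Tnni1. The slow myosin Myh7 overlapped between the genotypes as well, at 14.3 ± 12.1 CPM in KO and 33.5 ± 28.7 CPM in WT EDL (log2 fold change -1.22, SE 0.80). Csrp3, a stretch-sensitive protein of the Z-disc, was 1 of the 2 members with a positive value, with 181.9 to 601.7 CPM in KO and 98.9 to 484.6 CPM in WT libraries (log2 fold change 0.43, SE 0.50, and 0.18 without KO mouse 3805676).

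Myh6, the alpha myosin heavy chain of the heart, differed in sign from Myh7, its neighbour in the genome and close relative in sequence. It had 6.33, 34.6, 30.6, 13.1 and 12.9 CPM in KO libraries, against 3.83, 6.08, 3.65, 6.47 and 3.07 CPM in WT libraries. Only KO mouse 3779417 lay within the WT range, and the log2 fold change was 2.07 (SE 0.48, edgeR adjusted p = 0.986). Reads of the 2 genes can be shared between them, so the split is uncertain. The perinatal myosin Myh8, made in newborn and regenerating fibres, had 17.3 to 24.5 CPM in KO and 20 to 35.0 CPM in WT libraries (log2 fold change -0.50, SE 0.14, edgeR adjusted p = 0.986).

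**Figure D2:**
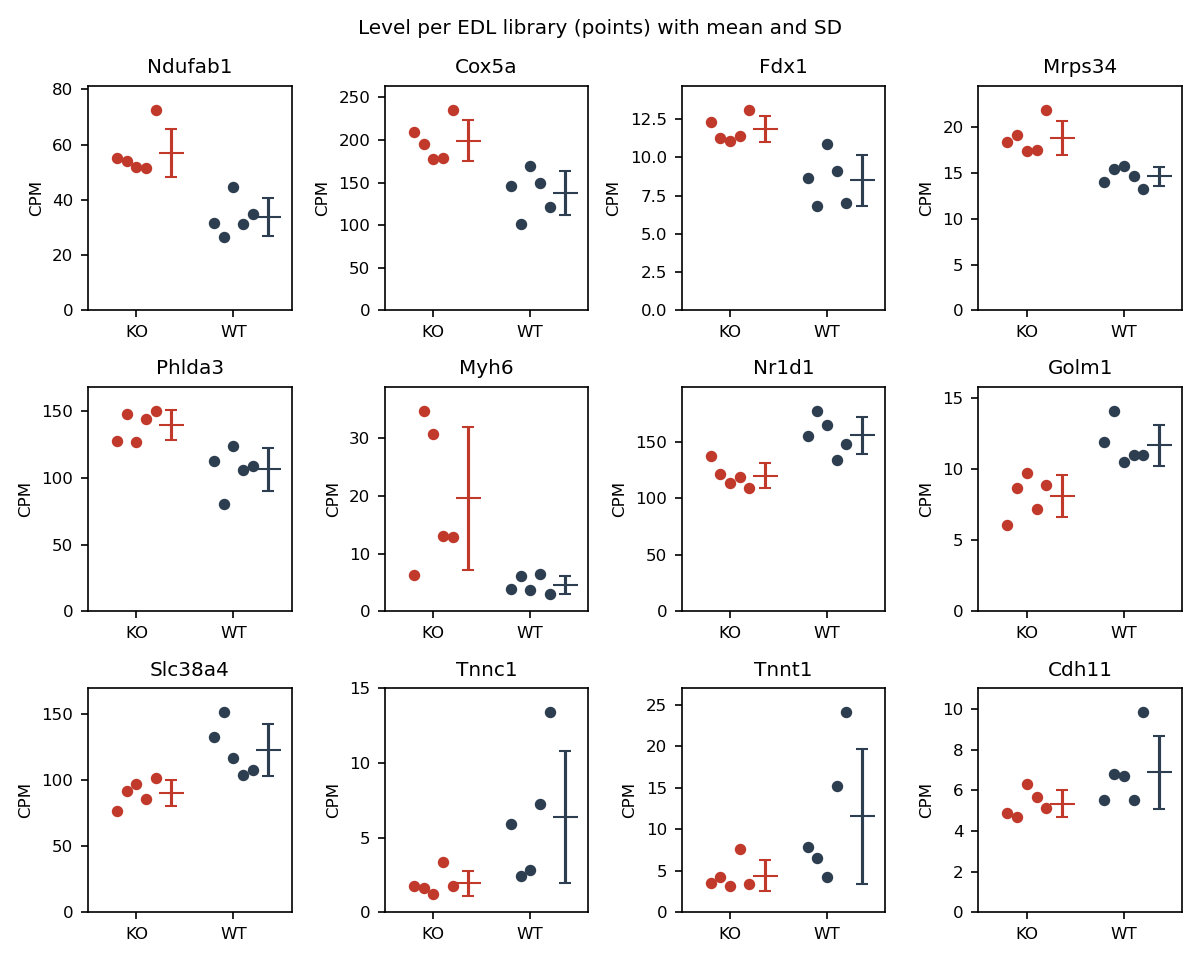
Level in CPM of 12 genes in EDL libraries of 5 KO (left, red) and 5 WT mice (right, dark); points are mice, and the line and bar beside them are the mean and SD, with each vertical axis starting at 0. Ndufab1, Cox5a, Fdx1, Mrps34 and Phlda3, higher in KO, and Golm1 and Slc38a4, lower in KO, have no overlap between genotypes. Tnnc1 and Tnnt1 spread widely in WT mice, up to 13.4 and 24.1 CPM.

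Genes of the mitochondrial respiratory chain leaned higher in KO EDL, and the gene next to Cdh15 in p was one of them. The chain passes electrons from NADH and succinate through complexes I to IV, and complex V makes ATP. Of the 80 nuclear genes of the 5 complexes that were measured, 79 were tested, 71 were positive, 19 had an unadjusted p under 0.05 with a higher mean in KO, and 0 had one with a lower mean. None of the 79 was called by edgeR, and their median log2 fold change was 0.14. Over all tested genes, 49.2% were positive and 2.58% had an unadjusted p under 0.05 with a higher mean in KO.

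Ndufab1 encodes the mitochondrial acyl carrier protein, which is also a subunit of complex I. It had 55.1, 53.9, 52.0, 51.6 and 72.5 CPM in KO libraries, against 31.5, 26.6, 44.6, 31.4 and 34.9 CPM in WT libraries. The groups did not overlap, and the log2 fold change was 0.75 (SE 0.13, edgeR adjusted p = 0.714). It passed the threshold in the DESeq2 Wald test (adjusted p = 0.00117) and in edgeR without WT mouse 3805657 (adjusted p = 0.03), the mouse with the highest WT level. Cox5a, a subunit of cytochrome c oxidase (complex IV), had 209.1, 195.1, 177.1, 179.2 and 235.1 CPM in KO libraries and 146.0, 101.9, 169.6, 149.3 and 121.8 CPM in WT libraries. Again the groups did not overlap, and the log2 fold change was 0.53 (SE 0.13, edgeR adjusted p = 0.986).

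By complex, 32 of 36 tested complex I genes were positive (median 0.12), 13 of 14 of complexes II and III (0.17), 12 of 13 of complex IV (0.15) and 14 of 16 of complex V (0.15). Ndufb2, an accessory subunit of complex I, had 46.3 to 61.9 CPM in KO and 29.0 to 56.3 CPM in WT libraries, so that 1 WT mouse reached the KO range (log2 fold change 0.54, SE 0.17). Cyc1, the cytochrome c1 of complex III, had 141.6 to 172.8 CPM in KO and 93.5 to 141.6 CPM in WT libraries (log2 fold change 0.36, SE 0.10). The ATP synthase subunit Atp5d had 139.0 to 169.4 CPM in KO and 100.6 to 147.7 CPM in WT libraries (log2 fold change 0.35, SE 0.10). Each had an edgeR adjusted p = 0.986.

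Genes that supply the chain leaned the same way. In fatty acid oxidation each of the 19 genes had a positive value (median 0.17, 5 at an unadjusted p under 0.05, 0 called), among them Eci1, an isomerase for unsaturated fatty acids, at 46.3 to 58.4 CPM in KO and 38.1 to 51.7 CPM in WT libraries (log2 fold change 0.31, SE 0.09). Acadl, the long-chain acyl-CoA dehydrogenase, had 230.8 to 290.3 CPM in KO and 186.3 to 239.6 CPM in WT libraries (0.26, SE 0.08). All 16 genes of pyruvate dehydrogenase and the citric acid cycle were positive as well (median 0.12, 2 at an unadjusted p under 0.05, 0 called), though 15 of 16 were without WT mouse 3793553, and 18 of 19 fatty acid oxidation genes without WT mouse 3817948. With 1 mouse left out, the count under 0.05 was 1 to 9 for the citric acid cycle and 2 to 11 for fatty acid oxidation, highest without KO mouse 3805666 for both, with the same 9 for the citric acid cycle without WT mouse 3817948. Mpc2, a subunit of the carrier that brings pyruvate into mitochondria, had 107.4 to 125.6 CPM in KO and 71.0 to 107.1 CPM in WT libraries (log2 fold change 0.38, SE 0.10), with no overlap. Fdx1, a mitochondrial ferredoxin that passes electrons to enzymes of steroid and lipoyl synthesis, had 11.1 to 13.1 CPM in KO and 6.82 to 10.9 CPM in WT libraries (0.47, SE 0.12), also with no overlap. Of 77 genes of the mitochondrial ribosome 58 were positive (median 0.05, 9 higher at an unadjusted p under 0.05), and 4 did not overlap. Over all tested genes, 49.2% were positive and 2.58% were higher at that p, and for 0.435% all KO libraries lay above all WT libraries. Mrps34, of its small subunit, led them with 17.4 to 21.9 CPM in KO and 13.3 to 15.8 CPM in WT libraries (0.37, SE 0.08). Glycolysis and glycogen genes were even, with 11 of 23 positive, a median of -0.02 and 0 at an unadjusted p under 0.05.

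The coactivator Ppargc1a and the receptor Esrra, which drive mitochondrial genes, had log2 fold changes of 0.41 (SE 0.18) and 0.20 (SE 0.09), the second 0.12 without KO mouse 3779417. Ppargc1a had 47.3, 30.7, 28.7, 47.1 and 29.7 CPM in KO libraries and 23.8, 29.7, 21.6, 28.3 and 34.3 CPM in WT libraries, so that 2 KO mice stood above all others. Both had an edgeR adjusted p = 0.986.

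A few mice set the ends of the mitochondrial genes. Of the 79 respiratory chain genes, 53 had their lowest level in WT mouse 3793553 and 21 in WT mouse 3805657. The highest level was in KO mouse 3779417 for 35 genes and in WT mouse 3817948 for 21. KO mouse 3805666 lay below the mean of the 10 libraries for each of the 4 complex lists. Without WT mouse 3793553, 68 of 79 were positive with a median of 0.09, and 12 had an unadjusted p under 0.05. That count, 19 with every mouse, was 12 without KO mouse 3779417, 10 without KO mouse 3793546, 32 without KO mouse 3805666 and 35 without WT mouse 3817948. Without both KO mouse 3779417 and WT mouse 3793553, a choice made after seeing the data, 62 of 79 were positive with a median of 0.06, and 8 had an unadjusted p under 0.05. The mitochondrially encoded share of reads was 16.67% to 20.78% in KO and 16.13% to 23.02% in WT libraries. The KO libraries lay inside the WT range only through WT mouse 3817948, at 23.02%. The other WT libraries lay at 16.13% to 17.49%. Of the KO libraries, that of mouse 3805666 lay within those values at 16.67%, and the others lay above them at 17.89% to 20.78%.

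Fold change also moved weakly with exon length. Over all tested genes, the shortest of 5 equal classes, up to 1601 exonic bases, had a median log2 fold change of 0.02 with 55.7% positive. The longest class, from 4734 bases, had a median of -0.024 with 40.4% positive. Complex I genes have a median exon length of 646 bases and Ndufab1 800 bases, while the slow-fibre genes, which lay lower, have a median of 1038 bases. The median length is 1948 bases for fatty acid oxidation genes and 2340 bases for pyruvate dehydrogenase and citric acid cycle genes. Within the shortest class, the median log2 fold change was 0.119 for 32 complex I genes and -0.551 for 10 slow-fibre genes. The part of length in the mitochondrial values was not tested.

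**Figure D3:**
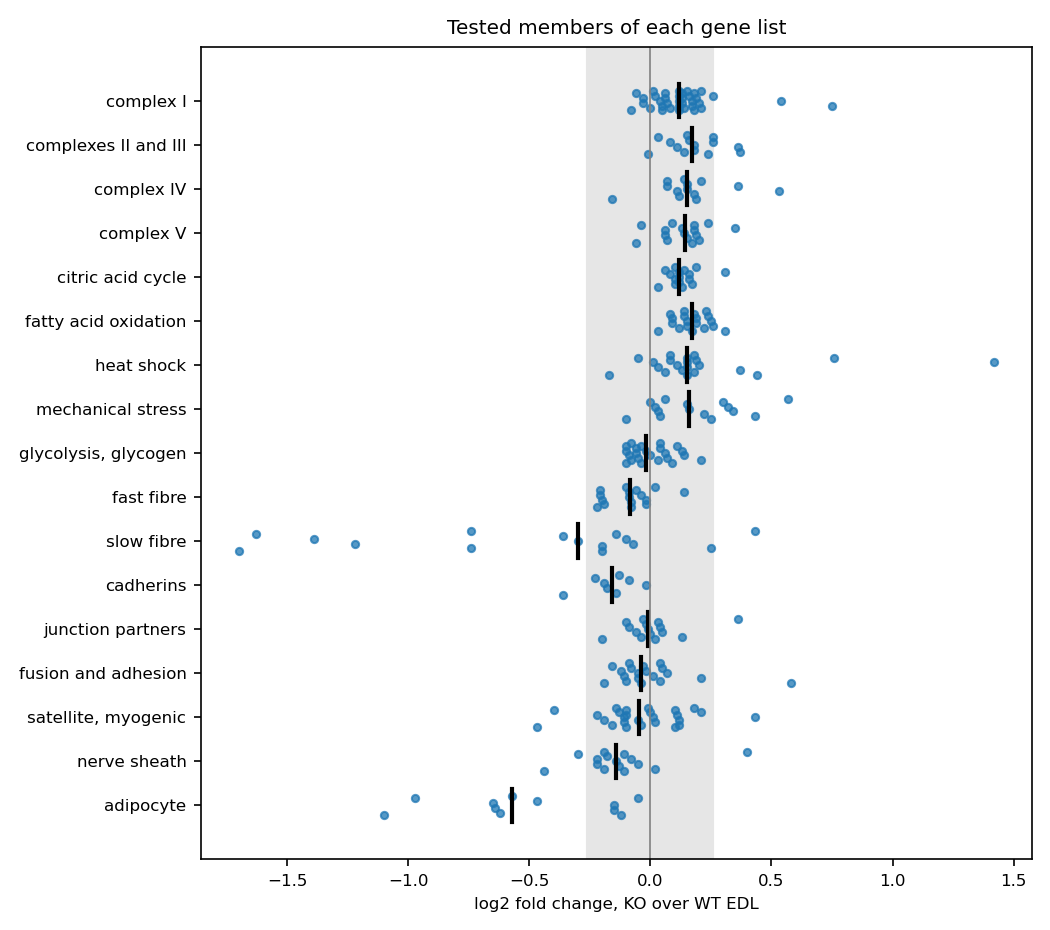
Log2 fold change, KO over WT EDL, of every tested member (points) of 17 gene lists, with the list's median as a black bar; the grey band holds the middle of all 12875 tested genes, from the 5th to the 95th percentile (-0.26 to 0.26). Members of the respiratory chain and fatty acid oxidation lie mostly right of 0, slow-fibre and adipocyte members reach far left, and junction and satellite cell members straddle 0.

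The remaining genes of smallest p included Phlda3, Ip6k3, Slc38a4, Golm1 and Pdgfc. Phlda3, a target of p53 that restrains Akt signalling, had 127.4, 148.1, 127.0, 144.2 and 150 CPM in KO libraries and 112.9, 80.1, 123.7, 105.9 and 109.0 CPM in WT libraries (log2 fold change 0.39, SE 0.10), with no overlap. Ip6k3, an inositol phosphate kinase found mainly in muscle, had 32.4 to 44.2 CPM in KO and 25.6 to 36.3 CPM in WT libraries (0.43, SE 0.11). On the lower side, Slc38a4, an amino acid transporter, had 76.6, 91.7, 97.4, 85.9 and 101.6 CPM in KO libraries and 133.0, 151.7, 116.6, 104.0 and 107.9 CPM in WT libraries (-0.44, SE 0.11), with no overlap. Golm1, a protein of the Golgi membrane, had 6.05 to 9.75 CPM in KO and 10.5 to 14.1 CPM in WT libraries (-0.52, SE 0.13). Pdgfc, a growth factor for mesenchymal cells, had 1.5 to 2.11 CPM in KO and 2.40 to 3.43 CPM in WT libraries (-0.67, SE 0.16). Each had an edgeR adjusted p = 0.986.

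The chromatin enzymes Setd1b, a histone H3 lysine methyltransferase, Kdm6b, a histone demethylase, and Tet3, which oxidizes methylated cytosine, were among the 12 negative genes of smallest p. Setd1b had 21.3 to 26.4 CPM in KO and 25.5 to 32.0 CPM in WT libraries (log2 fold change -0.33, SE 0.08). Kdm6b had 23.3 to 26.5 CPM in KO and 27.7 to 36.7 CPM in WT libraries (-0.28, SE 0.08), and Tet3 had 23.7 to 27 CPM in KO and 27.6 to 34.9 CPM in WT libraries (-0.26, SE 0.07). Kdm6b and Tet3 did not overlap between genotypes, and each of the 3 had an edgeR adjusted p = 0.986. These are long transcripts, of 8858, 6644 and 10906 exonic bases, in the class whose median was -0.024. The part of length in their values was not tested.

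The clock repressor Nr1d1 was the negative gene of smallest p after Cdh15. It had 137.5, 121.7, 113.4, 118.6 and 109.1 CPM in KO libraries and 155.5, 177.3, 164.9, 133.9 and 148.2 CPM in WT libraries, and the overlap was that of KO mouse 3779417 with WT mouse 3805673. The log2 fold change was -0.38 (SE 0.09, edgeR adjusted p = 0.986). Of 19 clock genes 4 were positive and 15 negative, with a median of -0.06 and Nr1d1 as the 1 member with an unadjusted p under 0.05. The hour at which tissue was taken is not given in the labels.

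Chaperones leaned higher, with 19 of 21 positive and a median of 0.15, while 49.2% of all tested genes were positive. The 3 members with an unadjusted p under 0.05 were the inducible Hsp70 genes Hspa1b and Hspa1a and the mitochondrial Hsp70 gene Hspa9, and 0 were called. Hspa1a and Hspa1b are near-identical and their reads can be exchanged. Their summed level was 12.5 to 38.6 CPM in KO and 7.38 to 15.6 CPM in WT libraries, which overlap. Genes of mechanical stress had 13 of 15 positive (median 0.16) with 0 at an unadjusted p under 0.05. The same caution on copies holds for Plac9a and Rnaset2b, which ranked high among the positive genes. Plac9a stood at 6.84 ± 1.18 CPM in KO and 3.90 ± 0.945 CPM in WT EDL, but its copy Plac9b at 5.34 ± 0.611 CPM in KO and 5.97 ± 1.58 CPM in WT EDL (SD, n = 5 each). Summed, they stood at 12.2 ± 1.61 CPM in KO and 9.87 ± 1.97 CPM in WT EDL, and their ranges overlap. Rnaset2a and Rnaset2b summed to 41.0 ± 3.73 CPM in KO and 37.6 ± 2.81 CPM in WT EDL.

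At the nerve contact, the collagen-like tail of acetylcholinesterase, Colq, had 5.76 to 7.81 CPM in KO and 6.74 to 9.33 CPM in WT libraries (log2 fold change -0.34, SE 0.12). The receptor subunit Chrna1 had 12.4 to 17.7 CPM in KO and 14.6 to 23.6 CPM in WT libraries (-0.34, SE 0.14). Dok7, which activates the receptor-clustering kinase MuSK, had 5.47 to 8.0 CPM in KO and 4.73 to 5.97 CPM in WT libraries (0.30, SE 0.11). Of 18 junction genes 7 were positive, with a median of -0.07 and 0 called. Of 18 atrophy genes 7 were positive (median -0.01), of 21 dystrophin complex genes 6 (median -0.07) and of 18 calcium handling genes 4 (median -0.04). None was called by edgeR, and the 1 with an unadjusted p under 0.05 was in the dystrophin complex list.

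Markers of other cell types varied widely between mice of 1 genotype. All 11 tested adipocyte genes were negative (median -0.57), with 0 at an unadjusted p under 0.05. Their summed level was 128.3, 238.5, 209.1, 212.9 and 187.1 CPM in KO libraries and 237.1, 191.5, 139.8, 323.0 and 301.8 CPM in WT libraries, so that KO mouse 3779417 was lowest and WT mice 3805673 and 3817948 were highest. Without KO mouse 3779417 the median was -0.32. Of the 15 Schwann cell genes 13 were negative (median -0.14). Their summed level was 147.2 CPM in KO mouse 3779417 and 353.8 to 443.4 CPM in the other KO mice, against 328.7 to 439.5 CPM in WT mice, and without that mouse the median was 0.03. Thus 1 library holds the gap in nerve tissue.

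Macrophage genes had 11 of 15 positive (median 0.04), with summed levels of 117.3 to 190.8 CPM in KO and 119.3 to 238.3 CPM in WT libraries. Fibroblast genes had 10 of 15 positive (median 0.04, sums of 3084.1 to 4804.9 CPM in KO and 2764.6 to 5387.0 CPM in WT libraries), and endothelial genes 7 of 16 (median -0.02, sums of 177.8 to 209.2 CPM in KO and 157.8 to 234.0 CPM in WT libraries). The medians of these 3 lists changed sign with 1 mouse left out, and without WT mouse 3817948 they were 0.24, 0.17 and 0.02. WT mouse 3817948, which held the highest slow-fibre, macrophage and fibroblast sums of the 10 mice, also had the lowest atrophy sum, 3835.6 CPM, against 6162.0 to 7173.7 CPM in KO mice and 6377.5 to 9338.2 CPM in the other WT mice. The epidermal genes Krt5, Krt14, Krt1 and Lor were at 0 in all 10 libraries. How far these tissue shares move the gene values above was not tested.

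The difference between genotypes in EDL was also set against the mean difference in gastrocnemius, soleus and tibialis of the same mice, over 40 libraries and 13534 genes. No gene passed the threshold in this comparison by edgeR or by DESeq2. An unadjusted p under 0.05 was reached by 503 genes (3.72%) with edgeR and by 549 with DESeq2, and 0% were called. Cdh15 averaged 1.45 to 2.87 CPM in the KO groups and 15.4 to 18.9 CPM in the WT groups of the 4 muscles, scaled together, so it was not among the genes of smallest p here. The 3 genes of smallest p were the slow troponins. For Tnnc1 this joint fit gave a KO over WT log2 fold change of -1.70 in EDL (SE 0.44), -0.39 in tibialis (SE 0.47), 0.42 in gastrocnemius (SE 0.35) and 0.99 in soleus (SE 0.33). The EDL value less the mean of the others was -2.04 (SE 0.49), with an edgeR adjusted p = 1. Tnnt1 gave -1.80 (SE 0.44) and Tnni1 -2.09 (SE 0.51) in the same comparison, both with an edgeR adjusted p = 1. Soleus, with the largest positive value for each, is the slow muscle of the 4. The median over the 15 slow-fibre genes was -0.30 for EDL (with every mouse kept), -0.19 for tibialis, 0.36 for gastrocnemius and 0.94 for soleus. For the EDL value less the mean of the others, their median was -0.77, with 2 positive and 13 negative. Of the 15, 10 had an unadjusted p under 0.05 in this comparison, against 3.72% of all tested genes, and 0 were called. This count keeps every mouse and has soleus among the other muscles. In the fit of EDL alone, the median of the list was -0.17 without WT mouse 3817948.

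Next came Cyp4f39, a cytochrome P450 of the fatty acid omega-hydroxylase family, at 1.85 (SE 0.50). In EDL it had 9.44, 3.74, 1.17, 3.09 and 3.58 CPM in KO libraries and 1.67, 0.278, 3.38, 1.14 and 1.11 CPM in WT libraries, which overlap. Ndufab1 had a KO over WT log2 fold change of 0.75 in EDL, against 0.20 in tibialis, -0.11 in soleus and -0.13 in gastrocnemius (SE 0.19 each). The difference from the mean of the others was 0.76 (SE 0.22, edgeR adjusted p = 1). Nr1d1 was negative in each muscle, at -0.38 in EDL, -0.36 in soleus, -0.26 in gastrocnemius and -0.19 in tibialis (SE 0.11 each). The median over complex I genes was 0.12 for EDL, 0.01 for gastrocnemius, 0.23 for soleus and 0.01 for tibialis, and over adipocyte genes it was -0.57, 0.01, 0.33 and 0.39 in that order. These muscles share the same 10 mice and are not independent repeats.

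**Figure D4:**
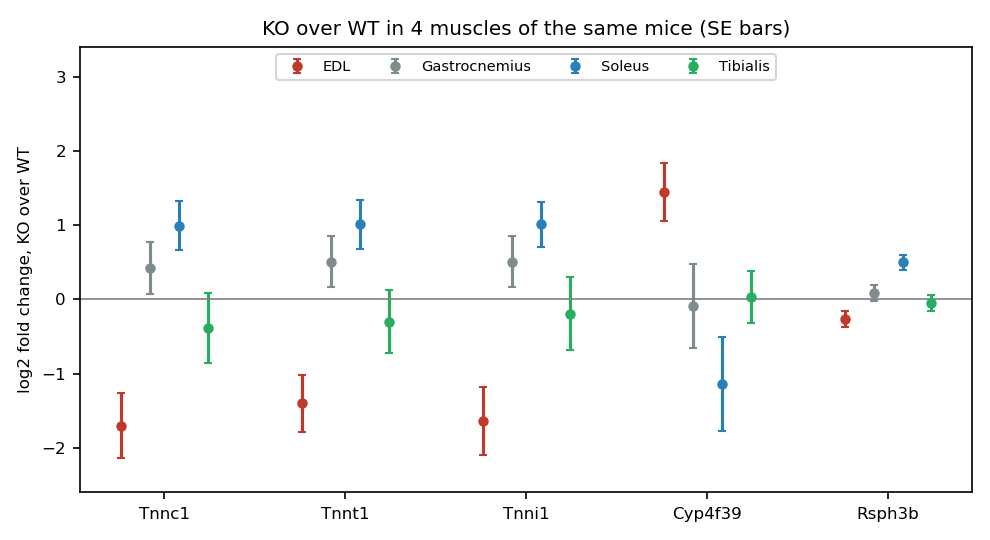
Log2 fold change of KO over WT with its SE for the 5 genes of smallest p in the comparison of EDL with the other muscles, in the 4 hind limb muscles of the same 10 mice. The slow troponins Tnnc1, Tnnt1 and Tnni1 are negative in EDL (-1.70, -1.40 and -1.64) and positive in soleus (0.99, 1.01 and 1.01), and none of the 5 genes passed the adjusted threshold.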

How the data were processed

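The authors deposited expected counts per gene on mm10 (per the submitters' processing notes) for polyadenylated RNA made into stranded libraries (per the labels' protocols). The aligner, the counter and whether strand was used in counting are not given in the sources used here. Of the EDL values, 86.23% were whole, and 5418 genes had a fraction in some library, so the expected counts were rounded. The deposited RPKM holds the same counts per exon length and library total, and was used only to compare levels between genes. The table has 24453 genes; its 22 marker sequences entered no fit. EDL depth was 17.88 M to 25.14 M counts. A count of 0 allows up to 3 reads. Replicate libraries were checked for copies over 20 pairs, and none was found (chi-square per gene of 10.833 or more). No label names a batch.

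The 5 KO and 5 WT libraries, each from its own mouse, were fitted in R 4.3.3 by the quasi-likelihood F test of edgeR 4.0.16 (TMM, robust dispersions, filterByExpr at counts of 10 and totals of 15), with Benjamini-Hochberg adjustment over all tested genes and a threshold of 0.05. SEs were taken from the F statistic. EDL was set against the other muscles by a contrast over 40 libraries. Exact permutation of the 10 mice served for single values. Alternatives were DESeq2 1.42.0 (size factors and Wald test), no filter, limma 3.58.1 voom with sample weights, the age as covariate, the age-matched sets as replicate block, the mouse as a block between muscles, the spread of all muscles, and each mouse left out. The age-matched sets do not pair the mice (correlations of -0.0952 to 0.131 between deviations from group means). Libraries of 1 mouse come from the same animal, and over 30 such pairs of EDL with another muscle the mean correlation was 0.162.

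The design assumed counts, and the files held expected counts. The gene lists and members were chosen with earlier results of these data known. Named genes are Cdh15, the 12 genes of smallest p in each direction at 1 CPM or more, list members with an unadjusted p under 0.05 (at most 4 a list), the 5 members of smallest p of 4 adhesion and satellite cell lists, the 3 most abundant members of the fibre and cadherin lists, and the 5 genes of smallest p against the other muscles; some are left out. Myh7, Cdh2, myomaker, myomixer, the keratins and loricrin, Plac9b and Rnaset2a were added outside this rule.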

Additional observations from a re-analysis of the deposited data

Results flagged for a closer look

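LacZ reads summed to 709 and SV40 reads to 39 in the KO EDL libraries, both in marker sequences that the tests do not use and both above the 3 and 0 reads of the WT libraries.

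For 29 of 262 sets of 5 libraries (92 named genes and 39 lists in each genotype), 1 mouse stood apart from the other 4 by Dixon's test at 95%. Chance alone gives about 1 in 20 for independent sets. These sets come from the same mice, some share members, and many genes were picked by p or level in these data. The 29 therefore cannot be read as an excess over that rate. WT mouse 3793553 was the lowest WT mouse for the metabolic genes Acadvl (168.2 CPM, 220.1 to 231.8 in the others), Atp5b (1254.1 CPM), Atp5g3 (176.6 CPM) and Fh1 (114.0 CPM). It was the highest for Myh4 (86295 CPM, 66937 to 71565 in the others), Cdh4 (2.46 CPM), the growth signalling list (1509.0 CPM) and the skin list (23.5 CPM). WT mouse 3817948 was lowest for the calcium pump Atp2a1 (24374 CPM) and highest for Ip6k3 (36.3 CPM), the macrophage list (238.3 CPM) and the cadherin list (122.0 CPM, 97.0 to 98.4 in the others). WT mouse 3805657 was lowest for Rsph3b (19.1 CPM), and WT mouse 3805673 highest for the Schwann cell cadherin Cdh19 (6.05 CPM).

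KO mouse 3805676 was the highest KO mouse for Tnnc1 (3.37 CPM), Tnnt1 (7.63 CPM), the interferon list (80.5 CPM) and the smooth muscle and pericyte list (625.4 CPM), and the lowest for Ctnnb1 (167.1 CPM), Katnal2 (2.29 CPM) and Kdm6b (23.3 CPM). KO mouse 3817943 was highest for Ndufab1 (72.5 CPM, 51.6 to 55.1 in the others), Colq (7.81 CPM) and Itga7 (70.3 CPM). KO mouse 3779417 was highest for Itga4 (21.0 CPM) and Mrpl34 (15.1 CPM) and lowest for Git2 (17.9 CPM). KO mouse 3805666 was highest for Fgfr1 (141.8 CPM), and KO mouse 3793546 lowest for Mef2d (71.6 CPM).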

How the results depend on the processing

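Cdh15 was called in every alternative run for EDL, with log2 fold changes of -2.77 to -2.62 when each mouse was left out. The 1 call became 3 in the DESeq2 Wald test (Cdh15, Ndufab1 and Plac9a, the last with an adjusted p = 0.0492), and 1 to 2 when each mouse was left out, with Ndufab1 the second without WT mouse 3805657. The 590 genes with an unadjusted p under 0.05 became 390 (without WT mouse 3793553) to 1092 (without WT mouse 3817948), and 310 without both KO mouse 3779417 and WT mouse 3793553, a choice made after seeing the data. The cause was not tested. With the age-matched sets as a replicate block, 1 gene was called and 489 had an unadjusted p under 0.05. With the mouse as a replicate block in the comparison with other muscles, 0 genes were called, as in every other alternative there, and 722 had an unadjusted p under 0.05. The block changed no other call. Some signs turned. With limma voom Atp2a1 was -0.02, Cdh13 0.00 and Myoz2 0.02, and without both mice Atp2a1 was -0.00. With each mouse left out, Atp2a1 ranged from -0.03 to 0.05, Cdh13 from -0.09 to 0.02, Cdh19 from -0.36 to 0.01, Cdh23 from -0.26 to 0.01, Cdh4 from -0.32 to 0.05 and Myoz2 from -0.33 to 0.09. The cadherin list stayed negative and the respiratory chain lists positive in each of these fits. With 5 mice a group and a median SE of 0.11, most changes of the size seen here could not be told from the spread between mice.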

Other observations

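Genes beside Cdh15 on chromosome 8 were looked at after the other results were known. Within 500 kb on each side, 24 genes were tested besides Cdh15, and 7 of them (29.2%) had an unadjusted p under 0.05, against 4.58% of all tested genes. None was called, and the smallest adjusted p was 0.986. Their signs were mixed. Piezo1, a stretch-activated ion channel, had 14.4, 15.3, 18.5, 13.9 and 17.8 CPM in KO libraries and 21.1, 19.4, 20, 17.2 and 22.0 CPM in WT libraries (log2 fold change -0.32, SE 0.10). Zc3h18 (-0.16, SE 0.06), Cbfa2t3 (-0.21, SE 0.10) and Ankrd11 (-0.20, SE 0.09) were negative too. The ribosomal protein gene Rpl13 had 146.1 to 187.4 CPM in KO and 115.0 to 158.5 CPM in WT libraries (0.31, SE 0.10), and Snai3 (0.45, SE 0.16) and Spg7 (0.14, SE 0.06) were positive. In the joint fit of 4 muscles Piezo1 stood at 0.09 in gastrocnemius, -0.24 in soleus and 0.04 in tibialis, and Rpl13 at -0.06, -0.30 and 0.08. With 250 kb on each side the count was 4 of 8, and with 1000 kb it was 7 of 33. Without WT mouse 3793553 it was 3 and without WT mouse 3817948 it was 5.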
